A study of Mus musculus with 11 samples.

Results

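The genes described here are 33 named genes of protein folding and stress in the endoplasmic reticulum, out of 23284 gene symbols counted in the mouse pancreatic acinar cell line 266-6. They were taken by symbol, and all 33 were in the count files and passed the filter on low counts, which left 13343 genes. The 33 were chosen with earlier results of these data known. By role 7 form the sensor class: stress sensors, transcription factors and the phosphatase subunit Ppp1r15a. The others are 12 chaperones and cochaperones, 5 disulfide isomerases, 2 genes of protein translocation and 7 genes of protein degradation. The study compared RNA of 266-6 cells after knockdown of Arid1a, a subunit of the SWI/SNF chromatin remodelling complex, with and without epidermal growth factor (EGF), a ligand of the receptor EGFR. Cells were transfected for 48 h either with a non-targeting control siRNA or with siRNAs against Arid1a at 25 nM. The labels give no dose of the control siRNA. All cells were then kept overnight without serum and treated for 8 h with EGF at 40 ng/ml or with its vehicle, 0.1% bovine serum albumin. With control siRNA there were 2 vehicle and 3 EGF libraries, and with Arid1a siRNAs 3 of each, which makes 4 groups. All libraries come from 1 established line with a transient, incomplete knockdown, and nothing in the labels says that replicates were separate cultures, so p-values measure the spread between these libraries, which may be technical.

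Proteins made for secretion enter the endoplasmic reticulum through the Sec61 channel, fold there with the help of Hsp70, Hsp90 and lectin chaperones and of disulfide isomerases, and are returned to the cytosol for degradation when they fail to fold. When unfolded protein accumulates, the membrane sensors IRE1, PERK and ATF6 start the unfolded protein response. IRE1 splices the mRNA of Xbp1 into a form that encodes an active transcription factor, PERK slows translation and raises ATF4, and cleaved ATF6 raises chaperone genes. Acinar cells of the pancreas make large amounts of digestive enzymes and depend on this machinery. Gene counts do not separate spliced from unspliced Xbp1 and say nothing of the activity of the sensor proteins.

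Several of these genes carry the endoplasmic reticulum stress element (ERSE) in their promoters, the DNA site through which ATF6 and XBP1 act together with NF-Y. RefSeq promoter windows from 250 bases before to 50 bases after the start of the gene (mouse build GRCm38.p6) were matched by symbol for 28 of the 33 genes, with no entry for Creb3l1, Hyou1, Derl1, Manf and Atf6. The ERSE letters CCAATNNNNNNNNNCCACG, searched on both strands, were in 9 of the 28 windows (32.1%) and in 37 of the 27025 windows of all genes (0.137%). The sites of the genes described below are printed because their carriers changed in different directions with EGF. They are given 5′ to 3′ on the strand of the gene, with the element in capitals; an element lying in the reverse direction reads CGTGG first and ATTGG last.
Hspa5: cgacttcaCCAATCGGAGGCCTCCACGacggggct
Hsp90b1, nearer site: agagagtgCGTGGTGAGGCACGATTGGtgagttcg
Hsp90b1, farther site: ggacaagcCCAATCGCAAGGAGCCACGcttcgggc
Canx: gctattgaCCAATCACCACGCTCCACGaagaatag
Dnajc3: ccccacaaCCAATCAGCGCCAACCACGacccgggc
Calr: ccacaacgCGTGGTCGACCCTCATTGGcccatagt
Creld2: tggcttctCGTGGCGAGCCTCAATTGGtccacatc
Pdia6: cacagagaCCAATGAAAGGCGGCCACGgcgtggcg
Syvn1: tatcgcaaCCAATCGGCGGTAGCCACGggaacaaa
Derl3: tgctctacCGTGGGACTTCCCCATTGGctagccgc

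The printed stretches lie at chr2:34772017-34772051, plus strand, for Hspa5, at chr10:86705525-86705559, minus strand, and chr10:86705630-86705664, minus strand, for Hsp90b1, and at chr11:50325792-50325826, minus strand, for Canx. Those of Dnajc3, Calr and Creld2 lie at chr14:118937819-118937853, plus strand, at chr8:84847067-84847101, minus strand, and at chr15:88819512-88819546, plus strand. Those of Pdia6, Syvn1 and Derl3 lie at chr12:17266483-17266517, plus strand, at chr19:6046524-6046558, plus strand, and at chr10:75893234-75893268, plus strand. All lie upstream of the annotated start, outside the transcribed gene: the element runs from 65 to 47 bases before the start in Hspa5, from 44 to 26 in Syvn1, the nearest, and from 212 to 194 for the farther site of Hsp90b1. The related ERSE-II letters ATTGGNCCACG were in 2 of the 28 windows, those of Herpud1 and Dnajb11 (7.14%, against 0.0444% of all windows). The unfolded protein response element TGACGTGG was in 0 of the 28 and in 0.714% of all windows. The C/EBP-ATF composite letters TGATGNAA, which lie in targets of ATF4 and CHOP, were in 1 window, that of Herpud1 (3.57%, against 4.51% of all windows).

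Each library held between 10279763 and 19773007 reads counted in genes, and between 131388 and 237810 of them fell in the 33 genes. The lowest count of any of them in a library was 42, for Creb3l1, followed by 122 for Derl3. Arid1a itself was measured at 292 and 399.9 CPM in the control libraries, 308, 263 and 300.2 CPM after EGF, 151, 157 and 127 CPM with Arid1a siRNAs and 145, 122 and 152 CPM with both, where CPM is the count scaled to library size with TMM factors. The knockdown and control libraries did not overlap, and the Arid1a siRNAs lowered Arid1a 2.38-fold without EGF and 2.08-fold with EGF. Acinar genes were present, Ctrb1 and Cpa1 among them, although Amy2a5 was at 0. The 28 acinar genes listed summed to 18140 to 20322 CPM in the control libraries, 15950 to 17260 after EGF, 18328 to 21824 with Arid1a siRNAs and 17208 to 19069 CPM with both, so that the EGF libraries were lower without overlap in control cells and overlapped the vehicle libraries with Arid1a siRNAs. Of the 23 acinar genes tested, 3 rose and 11 fell with EGF in control cells (median -0.39, log2) and 2 rose and 6 fell with Arid1a siRNAs (median -0.17). The 15 islet markers summed to 1185 to 1195 CPM in the control libraries, 1543 to 1565 after EGF, 879 to 1032 with Arid1a siRNAs and 1037 to 1098 CPM with both, most of it Chga, while the hormone genes Ins1, Ins2 and Sst were at 0. The 14 fibroblast and stellate cell markers summed to 564 to 613 CPM in the 5 libraries with control siRNA and 759 to 843 CPM in the 6 with Arid1a siRNAs, most of it Vim and Pdgfrb, with Lum at 0. The 10 duct markers, Sox9 the main one, summed to 140.5 to 171 CPM in the control libraries, 230.0 to 251 after EGF, 120.3 to 127 with Arid1a siRNAs and 156 to 163 CPM with both. The 13 immune and endothelial markers summed to 45.7 to 64.7 CPM, most of it Tek, with Cd3e at 0. The part of these levels in the results was not tested. In bulk RNA fewer cells of a type and less RNA per cell cannot be told apart. Of the libraries of each group, 1 was low for long transcripts: control replicate 1, control-with-EGF replicate 2, Arid1a-siRNA replicate 3 and Arid1a-siRNA-with-EGF replicate 2 had Spearman correlations of their deviation from the group mean with transcript length of -0.50, -0.38, -0.56 and -0.55 over 11643 genes, which are not independent. Ern1, Atf6, Creb3l2 and Sel1l have transcripts of 6300 to 7246 bases, and their lowest value in 3 or more of the groups came from these libraries. They were not the only ones: Eif2ak3 (4513 bases) and Canx (4281 bases) were lowest in these libraries in every group. Ssr1 (9333 bases) and Hyou1 (4489 bases), among others, were so in 3. Fits that took this relation into account were chosen after the data were seen and changed some calls, as given at the end. The cause of the relation was not tested.

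Genes were compared with edgeR's quasi-likelihood test over all 11 libraries, two-sided, and called at a Benjamini-Hochberg adjusted p below 0.05 over all genes tested. Changes are on the log2 scale with their standard error. Shares called are set against all genes tested, which were not matched for count to the genes described here or to the lists. Small changes are more readily called at high counts. The part of count level in any difference between these shares was not tested. Libraries that lie apart are common here. Of all genes tested, 55.5% did so for EGF with control siRNA and 38.7% for EGF with Arid1a siRNAs. For the Arid1a siRNAs it was 54.7% without EGF and 57.6% with it. Comparisons that share a group, such as EGF and Arid1a siRNAs against the same 2 control libraries, share its errors, and each is given by its own values. To see how far a call rests on 1 library, the fit was repeated with each of the 11 left out in turn, and the libraries whose absence changed a call are named with the adjusted p.

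EGF raised most genes of the sensor class and most chaperones, while Atf6 and the disulfide isomerases did not pass the test. In cells with control siRNA 14 of the 33 genes rose and 2, Sel1l and Derl3, fell, against 35.6% of all genes tested called, 16.8% higher and 18.8% lower. In cells with Arid1a siRNAs 16 rose and the same 2 fell, against 23.4% of all genes called, 13.0% higher and 10.4% lower. The median change of the 33 genes was 0.16 and 0.16 (log2), where the median of all genes tested was -0.03 and -0.01. The summed level of the 33 genes was 12025 to 12384 CPM in the control libraries and 13200.0 to 13807 CPM after EGF. With Arid1a siRNAs it was 12253 to 12733 CPM and rose to 13207 to 13791 CPM with EGF, so the EGF libraries lay above the vehicle libraries under either siRNA. The 2 EGF comparisons share no library: all 16 genes called with control siRNA were called in the same direction with Arid1a siRNAs, which is 100% of the first list and 88.9% of the second. Over all genes tested those shares were 56.1% and 85.3%.

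**Figure D1:**
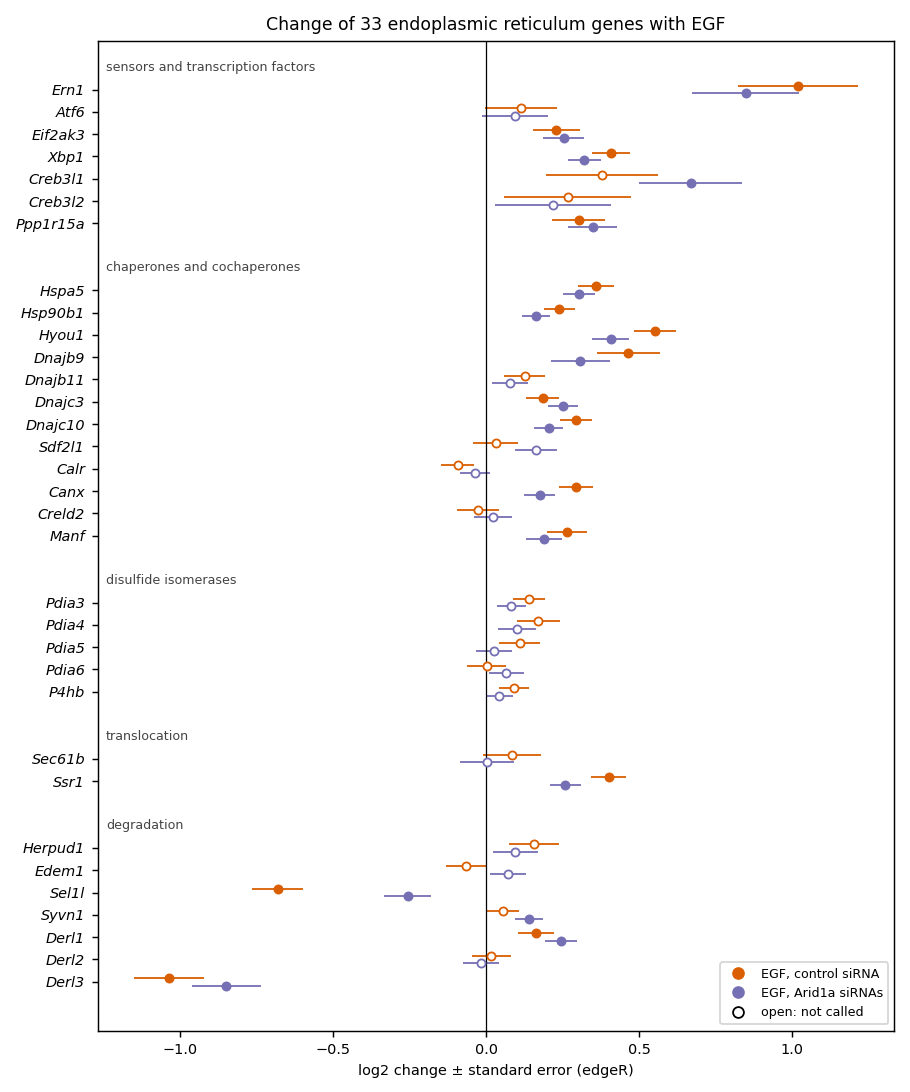
Log2 change with EGF (horizontal axis, ± standard error) of the 33 genes, by class, in cells with control siRNA (orange, n = 2 and 3 libraries) and with Arid1a siRNAs (purple, n = 3 and 3). Filled points passed the test and open points did not; the sensors and most chaperones lie to the right of 0, the disulfide isomerases near 0, and Sel1l and Derl3 to the left.

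Among the sensors, Ern1, which encodes IRE1, had the largest rise with EGF. Its level was 74.2 and 95.8 CPM in the control libraries, 191, 151 and 173 CPM after EGF, 95.3, 90.1 and 59.9 CPM with Arid1a siRNAs and 167, 123 and 152 CPM with both. All EGF libraries lay above all vehicle libraries, and the change was 1.02 ± 0.20, adjusted p = 0.00216 with control siRNA, a 2.03-fold rise, and 0.85 ± 0.18, adjusted p = 0.00524 with Arid1a siRNAs, a 1.80-fold rise. Arid1a siRNAs gave Ern1 overlapping libraries and changes of -0.05 ± 0.20 without EGF and -0.22 ± 0.17 with EGF, neither past the test (adjusted p = 0.871 and 0.315).

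Xbp1, the target of IRE1 splicing, rose with EGF under either siRNA. Its level was 402 and 395 CPM in the control libraries, 523, 514 and 549 CPM after EGF, 372, 382 and 422 CPM with Arid1a siRNAs and 490.5, 479 and 499 CPM with both. The EGF libraries lay apart from the vehicle libraries under either siRNA, with changes of 0.41 ± 0.06, adjusted p = 0.000119 and 0.32 ± 0.05, adjusted p = 0.000601. With Arid1a siRNAs the change was -0.02 ± 0.06 without EGF (adjusted p = 0.789) and -0.11 ± 0.05 with EGF (adjusted p = 0.108), and neither passed. The last became a call without Arid1a-siRNA replicate 3, adjusted p = 0.0393.

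Eif2ak3, which encodes PERK, rose with both treatments. Its level was 95.02 and 101 CPM in the control libraries, 115, 111 and 120.0 CPM after EGF, 164, 166 and 146 CPM with Arid1a siRNAs and 198, 173 and 197 CPM with both, so that each group lay apart from the others. Arid1a siRNAs raised it 1.62-fold without EGF (0.69 ± 0.08, adjusted p = 9.58e-06) and 1.64-fold with EGF (0.72 ± 0.07, adjusted p = 1.12e-06). The changes with EGF were 0.23 ± 0.08, adjusted p = 0.0304, with control siRNA and 0.25 ± 0.07, adjusted p = 0.0138, with Arid1a siRNAs. These smaller calls were lost when 1 library was left out: the first without control replicate 1 or control-with-EGF replicate 1 or 3, adjusted p of 0.0650 to 0.210, and the second without Arid1a-siRNA-with-EGF replicate 1 or 3, adjusted p of 0.0666 to 0.0773.

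Atf6, the sensor that is itself cleaved to a transcription factor, passed in none of the 4 comparisons. Its level was 90.5 and 111 CPM in the control libraries, 115, 99.6 and 113 CPM after EGF, 99.98, 107 and 85.0 CPM with Arid1a siRNAs and 115, 90.8 and 107 CPM with both, and all 4 groups overlapped. The 95% intervals of its log2 change were -0.14 to 0.37 and -0.13 to 0.32 for EGF, and -0.30 to 0.21 and -0.29 to 0.16 for the Arid1a siRNAs.

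The other 3 genes of this class are the related membrane factors Creb3l1 (OASIS) and Creb3l2 and the phosphatase subunit Ppp1r15a (GADD34), which reverses the translation block of PERK. Creb3l1 was at 5.66 and 5.23 CPM in the control libraries, 5.79, 7.46 and 8.07 CPM after EGF, 3.92, 5.96 and 6.44 CPM with Arid1a siRNAs and 8.80, 8.56 and 8.87 CPM with both. It rose with EGF in cells with Arid1a siRNAs (0.67 ± 0.17, adjusted p = 0.00959), and with control siRNA the change was 0.38 ± 0.18, adjusted p = 0.124, with no overlap of the libraries in either comparison. Ppp1r15a rose by 0.30 ± 0.09, adjusted p = 0.0134, and 0.35 ± 0.08, adjusted p = 0.00522. The first of these was lost without control replicate 2, adjusted p = 0.151. Creb3l2 had changes of 0.27 and 0.22 with EGF that did not pass, and its libraries overlapped. In this class 4 of 7 genes rose with EGF in control cells and 5 of 7 with Arid1a siRNAs, against 35.6% and 23.4% of all genes called. Eif2ak3 was the only one of the 7 called with Arid1a siRNAs (14.3%), against 38.9% of all genes without EGF and 46.9% with it.

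**Figure D2:**
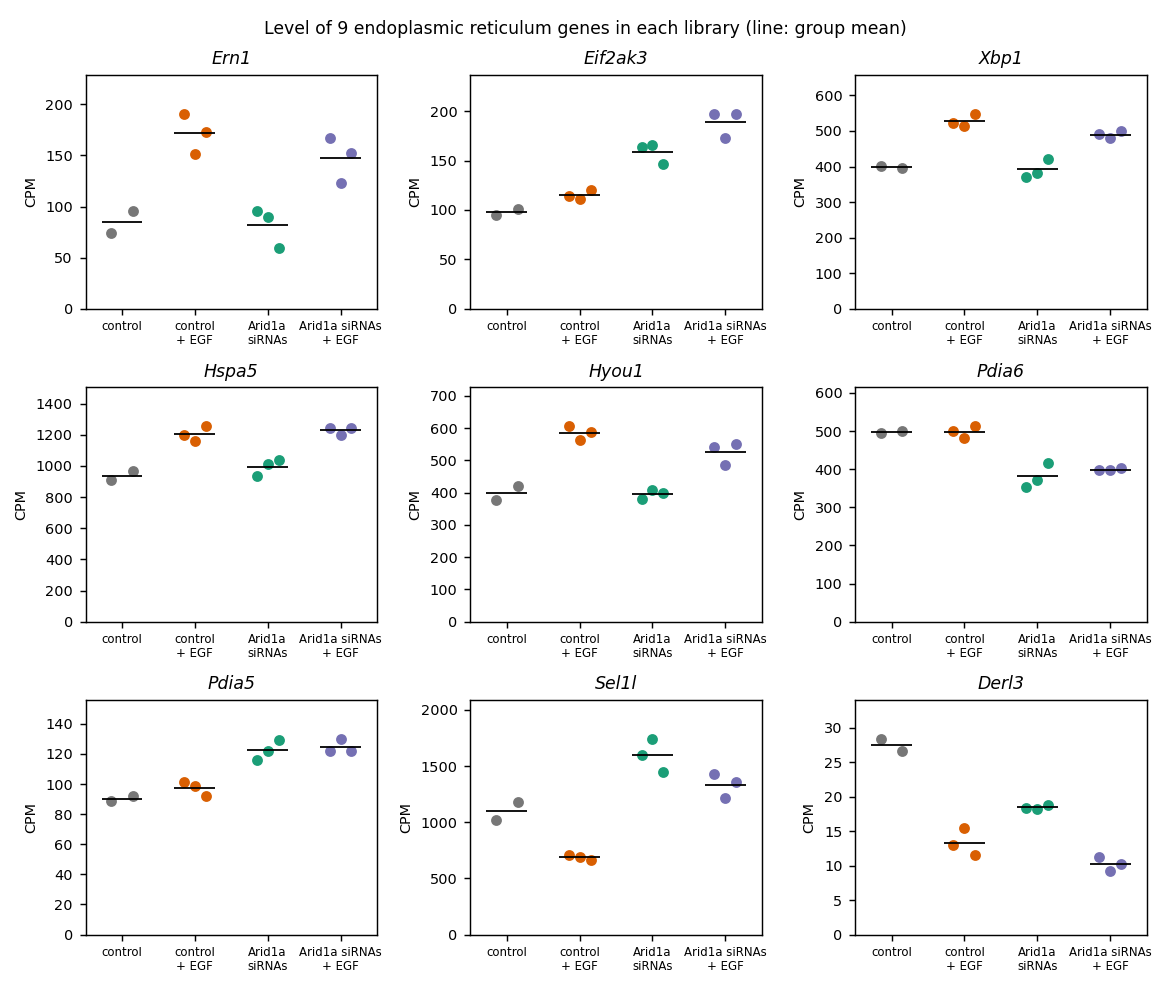
Level in CPM (vertical axes from 0) of 9 of the genes in each of the 11 libraries, with a line at the group mean. Ern1, Xbp1, Hspa5 and Hyou1 lie higher in both EGF groups, Eif2ak3 and Pdia5 higher and Pdia6 lower in both Arid1a groups, Sel1l is lowest after EGF with control siRNA, and Derl3 steps down with each treatment.

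Chaperones rose with EGF: 8 of 12 with control siRNA and the same number with Arid1a siRNAs, with 0 of 12 lower. Of all genes tested 16.8% and 13.0% were called higher, and 35.6% and 23.4% called. Hspa5 encodes BiP, the Hsp70 of the endoplasmic reticulum that holds the sensors inactive. It was measured at 908 and 967 CPM in the control libraries, 1196, 1158 and 1254 CPM after EGF, 937, 1012 and 1039 CPM with Arid1a siRNAs and 1243, 1200.1 and 1241 CPM with both. The EGF libraries lay above the vehicle libraries under either siRNA, and the change was 0.36 ± 0.06, adjusted p = 0.000256, and 0.30 ± 0.05, adjusted p = 0.000742. Arid1a siRNAs left overlapping libraries, with changes of 0.09 and 0.03 that did not pass.

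Hyou1, a large Hsp70-like exchange factor of BiP, had the largest rise with EGF among the chaperones. Its level was 378 and 421 CPM in the control libraries, 606, 565 and 587 CPM after EGF, 382, 408 and 399.5 CPM with Arid1a siRNAs and 542, 485 and 552 CPM with both. The rise with EGF was 1.47-fold with control siRNA (0.55 ± 0.07, adjusted p = 2.19e-05) and 1.33-fold with Arid1a siRNAs (0.41 ± 0.06, adjusted p = 0.000217). After EGF the libraries with Arid1a siRNAs lay below those with control siRNA, with a change of -0.16 ± 0.06, adjusted p = 0.0463.

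The cochaperones that carry a J domain and work with BiP moved upward with EGF, 3 of 4 past the test under either siRNA, against 16.8% and 13.0% of all genes called higher. Dnajb9 (ERdj4), which restrains IRE1, went from 25.0 ± 0.491 CPM (mean ± SD, n = 2) to 34.6 ± 2.53 CPM (n = 3) in control cells, a change of 0.47 ± 0.10, adjusted p = 0.00281. Dnajc10 (ERdj5), a reductase of proteins bound for degradation, rose by 0.29 ± 0.05 with control siRNA and 0.21 ± 0.05 with Arid1a siRNAs. Dnajc3 (p58IPK), an inhibitor of PERK, rose by 0.18 ± 0.05 and 0.25 ± 0.05 with EGF and fell with Arid1a siRNAs, with changes of -0.26 ± 0.05, adjusted p = 0.00138, without EGF and -0.20 ± 0.05, adjusted p = 0.00367, with it. Dnajb11 (ERdj3) had changes of 0.13 and 0.08 with EGF that did not pass. With control siRNA the call of Dnajc3 was lost without control replicate 1 or control-with-EGF replicate 3, adjusted p of 0.0599 to 0.0859, and with Arid1a siRNAs that of Dnajb9 was lost without Arid1a-siRNA replicate 2 or 3 or Arid1a-siRNA-with-EGF replicate 1 or 3, adjusted p of 0.0896 to 0.122.

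Hsp90b1 (GRP94), the Hsp90 of this compartment, rose by 0.24 ± 0.05 and 0.16 ± 0.04 with EGF, and the membrane lectin chaperone Canx by 0.29 ± 0.06 and 0.18 ± 0.05. Manf, a secreted stress-induced factor that binds BiP, rose by 0.26 ± 0.07 and 0.19 ± 0.06. In the cells with Arid1a siRNAs these 3 calls were each lost without some single libraries: Hsp90b1 without Arid1a-siRNA replicate 1 or 2 or Arid1a-siRNA-with-EGF replicate 3, adjusted p of 0.0550 to 0.0746; Canx without Arid1a-siRNA replicate 1 or 2 or Arid1a-siRNA-with-EGF replicate 1 or 3, adjusted p of 0.050002 to 0.124; and Manf without Arid1a-siRNA replicate 1 or 2 or Arid1a-siRNA-with-EGF replicate 1, 2 or 3, adjusted p of 0.0628 to 0.121. The soluble lectin chaperone Calr, a partner of Canx, was at 884 ± 19.9 CPM in control cells and 829 ± 25.6 CPM after EGF, and it did not pass in any of the 4 comparisons. Creld2 and Sdf2l1, the first a partner of isomerases and the second of BiP, did not pass in any of them either, with log2 changes between -0.14 and 0.16. Sdf2l1 became a call when Arid1a-siRNA replicate 3 was left out, lower with Arid1a siRNAs without EGF (adjusted p = 0.0360) and higher with EGF in those cells (adjusted p = 0.0262). Of the chaperone genes with a printed ERSE site, Hspa5, Hsp90b1, Canx and Dnajc3 rose with EGF, while Calr and Creld2 did not pass.

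With Arid1a siRNAs the called chaperones were all lower: 2 of 12 without EGF (16.7%), Manf (-0.27 ± 0.07) and Dnajc3, against 20.1% of all genes called lower and 38.9% called, and 6 of 12 with EGF (50%), against 23.2% called lower and 46.9% called. The share called was thus below that of all genes without EGF and near it with EGF. The 6 were Manf (-0.35 ± 0.06, adjusted p = 0.000224), Dnajc3, Dnajb9 (-0.23 ± 0.09, adjusted p = 0.0495), Dnajb11 (-0.18 ± 0.06, adjusted p = 0.0220), Canx (-0.15 ± 0.05, adjusted p = 0.0206) and Hyou1. For the knockdown with EGF same-numbered libraries deviated together, although replicate 2 was also the library low for long transcripts in both groups. With the replicate number as a block over all libraries Dnajb9 (adjusted p = 0.0555) and Hyou1 (adjusted p = 0.0751) were not called. The block on only the groups compared, which leaves few degrees of freedom, kept both calls. Leaving out 1 library ended the call of Dnajb9 without control replicate 1, control-with-EGF replicate 1 or 3, Arid1a-siRNA replicate 2 or Arid1a-siRNA-with-EGF replicate 1, 2 or 3, adjusted p of 0.0584 to 0.146, and that of Hyou1 without control-with-EGF replicate 1 or 3, Arid1a-siRNA replicate 1 or 2 or Arid1a-siRNA-with-EGF replicate 1, 2 or 3, adjusted p of 0.0532 to 0.200. It also ended that of Dnajb11 without control-with-EGF replicate 2 or 3 or Arid1a-siRNA-with-EGF replicate 1 or 3, adjusted p of 0.0594 to 0.102, and that of Canx without control-with-EGF replicate 1 or 3 or Arid1a-siRNA-with-EGF replicate 2, adjusted p of 0.0541 to 0.0943. Hsp90b1, at -0.11 (adjusted p = 0.0537), became a call without Arid1a-siRNA replicate 3, adjusted p = 0.0209. It was called lower in 9 of 22 alternatives to the main fit, among them DESeq2 (adjusted p = 0.0213) and limma-voom (adjusted p = 0.0375). Manf and Dnajc3 were called in each of the 11 refits in both comparisons. The direction of the other calls depended on the scaling. With upper-quartile factors Hspa5 (0.15, adjusted p = 0.0495) and Dnajc10 (0.17, adjusted p = 0.0170) were called higher with Arid1a siRNAs without EGF. With EGF those factors lost the lower calls of Canx, Dnajb11, Dnajb9 and Hyou1, adjusted p of 0.0809 to 0.138. Manf and Dnajc3 stayed called lower in both comparisons.

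The 5 disulfide isomerases, which form and reshuffle disulfide bonds, split by gene with Arid1a siRNAs and in the same way with and without EGF. Pdia6 was measured at 495 and 500.4 CPM in the control libraries, 501, 482 and 512 CPM after EGF, 353, 373 and 417 CPM with Arid1a siRNAs and 398, 397 and 402 CPM with both. All Arid1a libraries lay below all control libraries, and the change was -0.39 ± 0.06, adjusted p = 0.000295, without EGF and -0.32 ± 0.06, adjusted p = 0.000382, with it. Pdia3 (ERp57), which works with the lectin chaperones on glycoproteins, fell from 676 ± 2.67 to 539.6 ± 17.2 CPM without EGF (-0.33 ± 0.05, adjusted p = 0.000231) and from 745 ± 29.6 to 571 ± 9.09 CPM with it (-0.38 ± 0.05, adjusted p = 1.36e-05).

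Pdia5 and P4hb, the latter the founding disulfide isomerase PDI and a subunit of prolyl 4-hydroxylase, went the other way. Pdia5 was at 88.7 and 92.0 CPM in the control libraries, 101, 99.0 and 92.1 CPM after EGF, 116, 122 and 129 CPM with Arid1a siRNAs and 122, 129.7 and 122 CPM with both. It was 1.35-fold higher with Arid1a siRNAs without EGF (0.44 ± 0.07, adjusted p = 0.000145) and 1.28-fold higher with EGF (0.35 ± 0.06, adjusted p = 0.000202), and these libraries did not overlap. P4hb rose by 0.20 ± 0.05, adjusted p = 0.00611, and 0.15 ± 0.04, adjusted p = 0.0128, and the second call was lost without control-with-EGF replicate 2, adjusted p = 0.0506. Pdia4 (ERp72) did not pass in any of the 4 comparisons. With EGF 0 of the 5 were called by edgeR under either siRNA, against 35.6% and 23.4% of all genes, with 2 and 0 at an unadjusted p below 0.05. DESeq2 and limma-voom each called 1, Pdia3, with control siRNA and 0 with Arid1a siRNAs. The changes lay between 0.00223 (Pdia6) and 0.17 (Pdia4) in control cells. All 5 were above 0 under either siRNA. In control cells the EGF libraries of 4 of the 5 lay above all vehicle libraries, against 55.5% of all genes apart in either direction. With Arid1a siRNAs 1 of the 5 did so, against 38.7%. Pdia3, at 0.14 (adjusted p = 0.0511), and Pdia4, at 0.17 (adjusted p = 0.0720), lay nearest the threshold there, and became calls without some single libraries: Pdia3 without control-with-EGF replicate 1 or Arid1a-siRNA replicate 1 or 3, adjusted p of 0.0249 to 0.0485, and Pdia4 without Arid1a-siRNA-with-EGF replicate 2, adjusted p = 0.0414.

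Of the translocation genes, Ssr1, the alpha subunit of the translocon-associated protein complex, rose with EGF by 0.40 ± 0.06, adjusted p = 6.52e-05, in control cells and 0.26 ± 0.05, adjusted p = 0.00165, with Arid1a siRNAs. After EGF it was lower with Arid1a siRNAs (-0.18 ± 0.05, adjusted p = 0.00789). Sec61b, the beta subunit of the Sec61 channel, passed in 1 comparison, the knockdown with EGF (-0.24 ± 0.09, adjusted p = 0.0360). With the replicate number as a block over all libraries Sec61b was not called (adjusted p = 0.0591), while the block on only the groups compared kept the call. The call was also lost without control-with-EGF replicate 2 or 3 or Arid1a-siRNA-with-EGF replicate 1 or 3, adjusted p of 0.0920 to 0.133. Without EGF its change with Arid1a siRNAs was -0.16 and became a call without Arid1a-siRNA replicate 3, adjusted p = 0.00979.

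Among the degradation genes, Sel1l and Derl3 fell with EGF. Sel1l, the scaffold of the HRD1 ubiquitin ligase complex, was measured at 1022 and 1182 CPM in the control libraries, 705, 693 and 664 CPM after EGF, 1599, 1739 and 1450.5 CPM with Arid1a siRNAs and 1433, 1214 and 1362 CPM with both. The 4 groups did not overlap. EGF lowered it 1.60-fold with control siRNA (-0.68 ± 0.08, adjusted p = 2.24e-05) and 1.19-fold with Arid1a siRNAs (-0.26 ± 0.08, adjusted p = 0.0247). The second call was lost without Arid1a-siRNA replicate 1 or 2 or Arid1a-siRNA-with-EGF replicate 2 or 3, adjusted p of 0.0596 to 0.119. Arid1a siRNAs raised it 1.45-fold without EGF (0.53 ± 0.09, adjusted p = 0.000243) and 1.94-fold with EGF (0.96 ± 0.08, adjusted p = 2.55e-07).

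Derl3, a Derlin of the channel through which misfolded proteins leave, fell with each treatment. Its level was 28.3 and 26.6 CPM in the control libraries, 13.0, 15.4 and 11.5 CPM after EGF, 18.4, 18.2 and 18.8 CPM with Arid1a siRNAs and 11.2, 9.29 and 10.2 CPM with both. No group overlapped another. EGF lowered it 2.05-fold with control siRNA (-1.04 ± 0.11, adjusted p = 7.44e-06) and 1.80-fold with Arid1a siRNAs (-0.85 ± 0.11, adjusted p = 9.12e-05). Arid1a siRNAs lowered it 1.49-fold without EGF (-0.58 ± 0.11, adjusted p = 0.00104) and 1.31-fold with EGF (-0.39 ± 0.12, adjusted p = 0.0131), and the last call was lost without control-with-EGF replicate 2 or Arid1a-siRNA-with-EGF replicate 2, adjusted p of 0.0579 to 0.0830. Its promoter holds the ERSE site printed above, as do those of Hspa5 and Hsp90b1, which rose with EGF.

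The other Derlins and the ligase changed less. Derl2 rose with Arid1a siRNAs by 0.32 ± 0.07, adjusted p = 0.00137, and 0.29 ± 0.06, adjusted p = 0.000965, and had changes near 0 with EGF (0.02 and -0.02). Derl1 rose with EGF by 0.16 ± 0.06, adjusted p = 0.0416, and 0.24 ± 0.05, adjusted p = 0.00352, and was 0.14 higher with Arid1a siRNAs in EGF (adjusted p = 0.0405). That last change was not called with the replicate block over all libraries (adjusted p = 0.0576), and was called with the block on only the groups compared. The first of these Derl1 calls was lost without control replicate 1 or 2, control-with-EGF replicate 1, 2 or 3 or Arid1a-siRNA-with-EGF replicate 1, adjusted p of 0.0541 to 0.148, and the last without control-with-EGF replicate 1, 2 or 3 or Arid1a-siRNA-with-EGF replicate 1 or 2, adjusted p of 0.0579 to 0.142. Syvn1, which encodes the ligase HRD1, rose with Arid1a siRNAs by 0.16 ± 0.05, adjusted p = 0.0235, and 0.25 ± 0.05, adjusted p = 0.000551, and with EGF in those cells by 0.14 ± 0.05, adjusted p = 0.0417. The first was lost without control replicate 1 or 2, adjusted p of 0.0771 to 0.0826, and the EGF call without control replicate 1, control-with-EGF replicate 1, 2 or 3, Arid1a-siRNA replicate 1 or 2 or Arid1a-siRNA-with-EGF replicate 1, 2 or 3, adjusted p of 0.0512 to 0.129.

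Edem1, a lectin that hands misfolded glycoproteins to degradation, fell with Arid1a siRNAs without EGF (-0.28 ± 0.07, adjusted p = 0.00368). With EGF it was -0.14 (adjusted p = 0.0588), which became a call without control replicate 2 or control-with-EGF replicate 2, adjusted p of 0.0451 to 0.0486. That change was called lower in 9 of 22 alternatives to the main fit, among them DESeq2 (adjusted p = 0.0488). Herpud1, a stress-induced partner of HRD1, did not pass in any of the 4 comparisons, although its promoter holds both an ERSE-II and a C/EBP-ATF match. Its changes ran from 0.10 to 0.19, and without Arid1a-siRNA replicate 1, adjusted p = 0.0283, the knockdown without EGF became a call. Of the 7 degradation genes 3 rose and 2 fell with Arid1a siRNAs without EGF, and 4 rose and 1 fell with EGF, which is 71.4% called in each, against 38.9% and 46.9% of all genes.

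Over all classes, Arid1a siRNAs moved genes in both directions. Without EGF 6 of the 33 genes rose and 6 fell, against 38.9% of all genes called, 18.8% higher and 20.1% lower, so that the share of the 33 called (36.4%) was near that of all genes. With EGF 7 rose and 11 fell, against 46.9% of all genes called, 23.7% higher and 23.2% lower. The median changes were -0.02 and -0.06, against -0.01 and 0.00 for all genes tested. The split depended on the scaling: with upper-quartile factors 10 rose and 6 fell without EGF, and 7 rose and 6 fell with EGF, and the share of higher genes among all calls without EGF went from 48.3% to 60.7%. These 2 comparisons share no library, and 11 of the 33 genes were called in the same direction in both, 6 higher and 5 lower, which is 91.7% of the first list and 61.1% of the second. Over all genes those shares were 80.9% and 67.1%. With the replicate block fitted on only the groups compared, which leaves few degrees of freedom, Ern1 (-0.22, adjusted p = 2.61e-08), Xbp1 (-0.10, 0.000832), Hsp90b1 (-0.11, 5.55e-05) and Edem1 (-0.14, 3.31e-05) were also called lower with Arid1a siRNAs in EGF. That fit called Creb3l1 (0.31, 0.0244), Creld2 (0.11, 0.00271) and Herpud1 (0.13, 0.00928) higher.

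**Figure D3:**
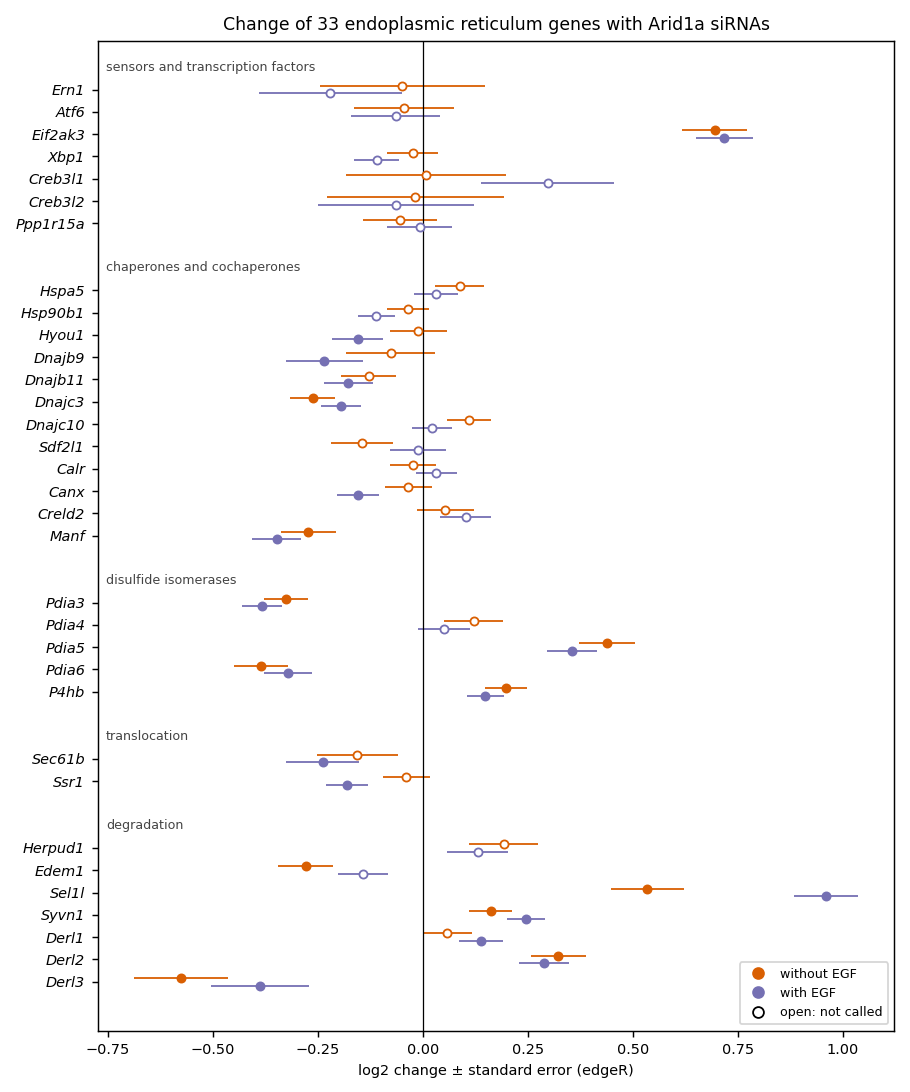
Log2 change with Arid1a siRNAs (horizontal axis, ± standard error) of the 33 genes, by class, without EGF (orange, n = 2 and 3 libraries) and with EGF (purple, n = 3 and 3). Filled points passed the test; Eif2ak3, Pdia5, P4hb, Sel1l, Syvn1 and Derl2 lie to the right of 0 and Dnajc3, Manf, Pdia3, Pdia6 and Derl3 to the left in both media.

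The interaction asks whether the response to EGF differed between the siRNAs. With edgeR 0 of the 33 genes passed, and DESeq2 and limma-voom also called 0, against 0.944% of all genes tested (0.562% higher, 0.382% lower with Arid1a siRNAs). At an unadjusted p below 0.05 there was 1, Sel1l, whose fall with EGF was smaller with Arid1a siRNAs by 0.42 ± 0.11 (log2, adjusted p = 0.126). In 2 alternatives chosen after the data were seen Sel1l was called: with the length relation of each library as a covariate (0.42, adjusted p = 3.91e-06), and without the library of each group that was lowest for long transcripts (0.53, adjusted p = 9.79e-06). For the other genes the intervals limit what was detectable: that of Ern1 ran from -0.73 to 0.39, and that of Hspa5 from -0.23 to 0.11, on the log2 scale.

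Levels between genes can be compared only per transcript length, for which the authors' FPKM values (fragments scaled to transcript length and library size) were used in the 3 groups whose columns match the labels. Hsp90b1 was highest of the 33 in each of them, at 642 ± 19.8 FPKM (mean ± SD, n = 3) with control siRNA and EGF, 532 ± 17.4 with Arid1a siRNAs and 592 ± 11.1 with both. P4hb, Calr and Hspa5 followed, between 385 and 473 FPKM by group mean, and their order changed from group to group. Xbp1 was the transcription factor at the highest level, at 296 ± 10.5, 220.1 ± 15.3 and 274 ± 5.41 FPKM. The sensors were far lower: with Arid1a siRNAs and EGF, Eif2ak3 stood at 39.7 ± 2.95, Ern1 at 34.4 ± 5.10 and Atf6 at 12.9 ± 1.504 FPKM, and the first of these did not lie beyond its spread from the second. Sel1l ranked 16 of 33 with control siRNA and EGF (103 ± 3.32 FPKM) and 5 of 33 with Arid1a siRNAs (239 ± 20.6 FPKM). Creb3l1 was lowest in each group, at 3.07 ± 0.494, 2.30 ± 0.610 and 3.75 ± 0.0130 FPKM.

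**Figure D4:**
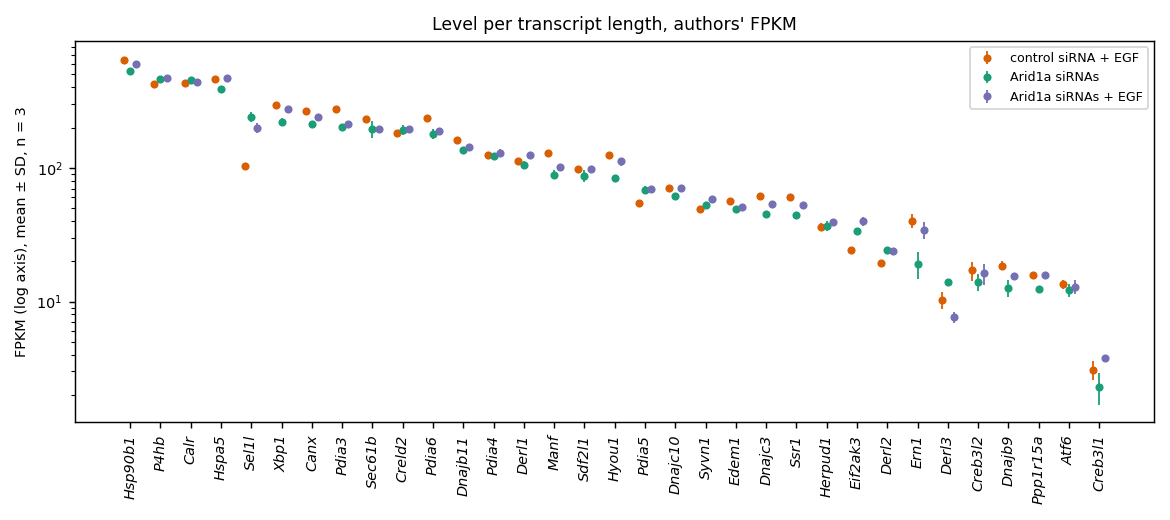
Level per transcript length of the 33 genes in FPKM (vertical log axis, mean ± SD of 3 columns), in the order of the Arid1a siRNA group. Hsp90b1 is highest and Creb3l1 lowest, and Sel1l stands apart between control siRNA with EGF (orange) and both Arid1a groups (green, purple).

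Around these genes, 8 wider lists of the same pathways were counted in the same fit. The ATF4 and CHOP branch had the highest median of the 8 with EGF, and the part of PERK in its changes was not tested. With EGF in control cells 11 of 20 genes tested rose and 1 fell (median 0.33). With EGF in cells with Arid1a siRNAs 15 rose and 0 fell (median 0.49). The shares called were 60.0% and 75%, against 35.6% and 23.4% of all genes. Leaving out 1 library gave 6 to 11 higher in the first, with 6 without control replicate 1 and 7 without control-with-EGF replicate 3, and 12 to 16 in the second. Atf4, the transcription factor of the branch, rose by 0.44 ± 0.06, adjusted p = 7.63e-05, and 0.46 ± 0.06, adjusted p = 4.04e-05. Ddit3 (CHOP) did not pass with EGF (0.08 ± 0.10 and 0.24 ± 0.09), and the pseudokinase Trib3 did (0.47 ± 0.14 and 0.79 ± 0.12). Psat1 of serine synthesis (0.72 ± 0.06 and 0.61 ± 0.05) and Mthfd2 of mitochondrial folate metabolism (0.64 ± 0.06 and 0.66 ± 0.05) had the smallest p-values. With Arid1a siRNAs 5 rose and 2 fell without EGF (35.0% called, against 38.9% of all genes) and 8 rose and 2 fell with it (50%, against 46.9%). The refits gave 3 to 5 higher and 1 to 2 lower without EGF, with 3 higher without control replicate 1 or Arid1a-siRNA replicate 3, and 8 higher and 1 to 2 lower with EGF. Among those that rose was the stress protein Nupr1 (0.78 ± 0.08 and 0.92 ± 0.07). With EGF, Ddit3 (0.30 ± 0.09, adjusted p = 0.0113) and Trib3 (0.47 ± 0.12, adjusted p = 0.00375) were among them, while Atf4 was not called (-0.04).

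Genes of entry into the endoplasmic reticulum (translocon, signal recognition and signal peptidase) rose with EGF in 12 of 25 with control siRNA and 10 of 25 with Arid1a siRNAs, with 0 lower in either. The shares, 48.0% and 40.0%, stand against 16.8% and 13.0% of all genes called higher. With Arid1a siRNAs 0 rose, and 5 fell without EGF (20%, against 20.1% of all genes called lower) and 8 with it (32.0%, against 23.2%). With 1 library left out there were 0 to 2 higher and 4 to 6 lower without EGF, with 2 higher without Arid1a-siRNA replicate 1. Upper-quartile factors gave 2 higher and 4 lower without EGF and the same 0 and 8 with it. Sec61a1, the channel itself, rose by 0.54 ± 0.05 and 0.37 ± 0.05 with EGF. Serp1, a stress-associated partner of the channel, rose by 0.40 ± 0.05 and 0.35 ± 0.04 with EGF and had changes of -0.66 ± 0.05, adjusted p = 2.17e-07, and -0.72 ± 0.04, adjusted p = 1.86e-08, with Arid1a siRNAs. Ssr3, a partner subunit of Ssr1, had changes of -0.62 ± 0.05 and -0.66 ± 0.05 in those comparisons.

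Genes of N-glycosylation and the calnexin cycle rose with EGF in 10 of 27 (control siRNA) and 7 of 27 (Arid1a siRNAs), with 0 lower, against 16.8% and 13.0% of all genes called higher. Without control replicate 2 the first count was 6, and without Arid1a-siRNA replicate 3 the second was 11. The genes included the glucosidase Mogs (0.46 ± 0.07 and 0.36 ± 0.06) and, with control siRNA, the transferase subunit Stt3a (0.43 ± 0.05). With Arid1a siRNAs 3 rose and 3 fell without EGF, and 1 rose, Alg9 (0.52 ± 0.09), and 8 fell with EGF, with Magt1 at -0.48 ± 0.07. These calls were 22.2% and 33.3% of the list, against 38.9% and 46.9% of all genes. The refits gave 1 to 4 higher and 2 to 4 lower without EGF, with 1 higher without control replicate 1 or 2, and 2 higher with EGF without Arid1a-siRNA replicate 3. The median of the list with Arid1a siRNAs in EGF was 0.02, above 0 although most calls were lower. COPII and early traffic genes rose in 11 and fell in 2 of 33 with EGF in control cells (39.4% called, against 35.6% of all genes) and in 5 and 1 with Arid1a siRNAs (18.2%, against 23.4%), where 2 rose without Arid1a-siRNA replicate 1 and 3 without Arid1a-siRNA replicate 2 or Arid1a-siRNA-with-EGF replicate 1 or 3. Among them Preb, which starts COPII coats, rose by 0.41 ± 0.06 and 0.26 ± 0.05. With Arid1a siRNAs 6 rose and 9 fell without EGF (45.5%, against 38.9%) and 5 rose and 11 fell with EGF (48.5%, against 46.9%), with the SNARE Sec22b at -0.76 ± 0.07 and -0.77 ± 0.07. Without Arid1a-siRNA replicate 1 or Arid1a-siRNA-with-EGF replicate 3, 5 fell without EGF. Upper-quartile factors turned the first of these splits to 7 higher and 5 lower, and gave 8 and 9 for the second.

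The lists of other chaperones, thioredoxin-fold genes, degradation genes and sensors moved in both directions. With EGF in control cells 6 rose and 3 fell of 24 other chaperones (37.5% called), 5 and 5 of 18 thioredoxin-fold genes (55.6%), 5 and 3 of 29 degradation genes (27.6%) and 5 and 4 of 16 sensors and kinases (56.2%), against 35.6% of all genes. With EGF in cells with Arid1a siRNAs the counts were 3 and 3 (25.0%), 3 and 3 (33.3%), 3 and 2 (17.2%), and 3 and 2 (31.2%) in the same order, against 23.4% of all genes. Without control replicate 1 the counts that rose in control cells were 3 for other chaperones, 3 for degradation genes and 1 for sensors, and these small counts moved with other libraries too. Fkbp11, a prolyl isomerase of secretory tissues, rose with EGF by 1.03 ± 0.10, adjusted p = 3.70e-06, and 0.59 ± 0.09, adjusted p = 0.000355. Erlin1, a membrane adaptor of degradation, rose by 0.96 ± 0.07 and 0.52 ± 0.07. Ero1lb, the pancreatic oxidase that recharges the isomerases, fell with EGF, with changes of -0.89 ± 0.08 and -0.47 ± 0.07, and rose with Arid1a siRNAs by 0.55 ± 0.08 and 0.97 ± 0.07. Rcn3, a calcium-binding protein of the lumen, had the same signs in all 4, at -0.76, -0.49, 0.59 and 0.86 in that order.

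With Arid1a siRNAs without EGF 4 rose and 3 fell among other chaperones (29.2% called), 6 and 6 among thioredoxin-fold genes (66.7%), 6 and 5 among degradation genes (37.9%) and 5 and 3 among sensors (50%), against 38.9% of all genes. With EGF the counts were 4 and 8 (50%), 7 and 9 (88.9%), 9 and 3 (41.4%) and 6 and 4 (62.5%) in the same order, against 46.9%. Several of them moved with 1 library left out. Without EGF 2 other chaperones and 3 thioredoxin-fold genes rose without control replicate 2, 3 sensors rose and 1 fell without control replicate 1, and 1 sensor fell without Arid1a-siRNA replicate 2. With EGF 2 other chaperones rose without control-with-EGF replicate 1 or 3 or Arid1a-siRNA-with-EGF replicate 2, the last of which left 5 lower, and 5 degradation genes fell without Arid1a-siRNA replicate 3. Creb3l3, a membrane-bound factor of the Atf6 type, rose by 1.97 ± 0.16, adjusted p = 8.48e-07, without EGF and 1.94 ± 0.15, adjusted p = 1.95e-07, with it. The reductase Tmx3 had changes of -0.66 ± 0.08 and -0.84 ± 0.08 and the ubiquitin-conjugating enzyme Ube2g2 of -0.76 ± 0.08 and -0.87 ± 0.08.

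**Figure D5:**
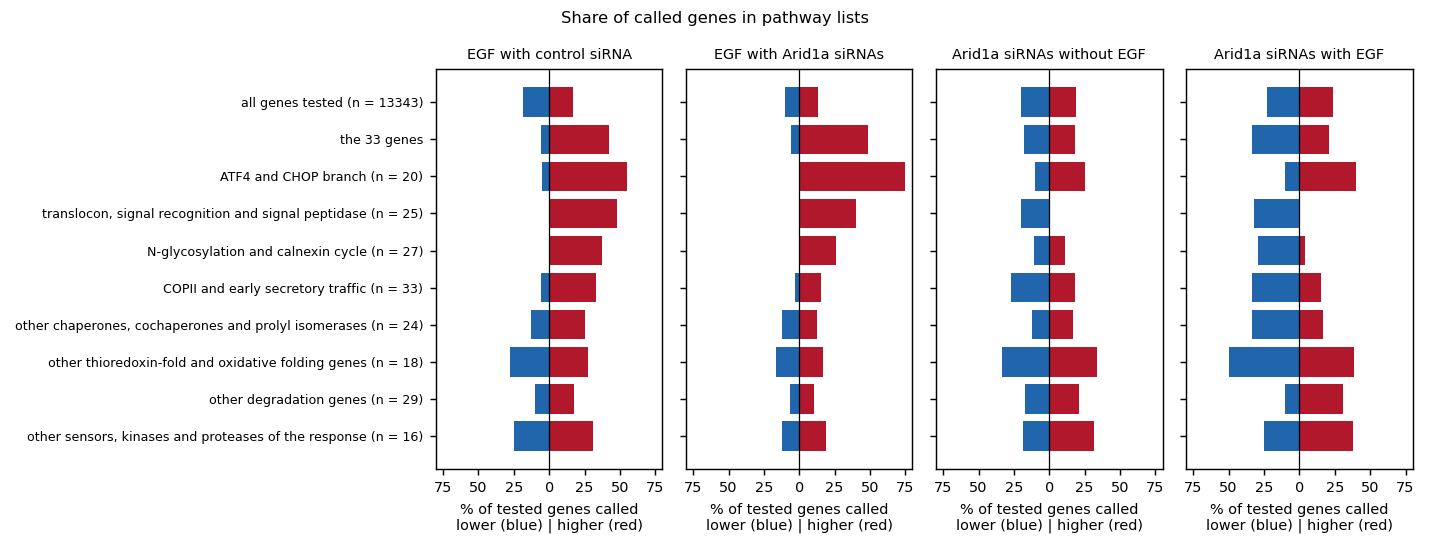
Share of tested genes called higher (red, to the right) and lower (blue, to the left) in percent, for all genes tested, the 33 genes and the 8 wider lists, in the 4 comparisons. Bars of the 33 genes, the ATF4 and CHOP branch, the translocon list and the N-glycosylation list lie mostly to the right in both EGF panels.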

How the data were processed

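RNA of 11 libraries of the 266-6 line was sequenced as poly(A)-selected, unstranded mRNA libraries (TruSeq RNA v2), per the labels' protocols. The authors deposited raw read counts per gene symbol for each library, and a table of FPKM. Per the submitters' processing notes the tools were TopHat2 2.1.1, HTSeq 0.9.1, Cuffnorm 2.2.1.2 and Cuffdiff 2.2.1.5 with the mouse build mm9; which made which file, and the gene annotation, are not given in the sources used here. Among the FPKM columns, 3 could not be matched to samples by name and were not used; the other 9 match groups but carry no replicate label. Without strand, reads of overlapping antisense genes cannot be told apart, and reads of near-identical gene copies may be split or lost.

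From the deposited counts, edgeR 4.0.16 (R 4.3.3) fitted 4 group means over all 11 libraries with TMM factors, filterByExpr (minimum count 10) and robust quasi-likelihood dispersion. The biological coefficient of variation was 7.00%. Standard errors come from the log2 change and its F statistic. Genes were called at an adjusted p below 0.05. On simulated counts the fit recovered 67.2% of 1.5-fold and 91.0% of 2-fold changes for EGF with control siRNA, and 37.3% and 68.7% for the interaction. Replicates of a group differed by more than counting error (chi-square per degree of freedom 1.57 to 10.9), so none is a copy.

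Same-numbered libraries deviated together for the knockdown with EGF (correlations 0.14, 0.30 and 0.13) and not for the other comparisons, where at least 1 correlation was under 0.1. Replicate 2 of both EGF groups was also low for long transcripts, so number and length relation cannot be told apart there. Such low libraries also correlated under unlike numbers: control replicate 1 with control-with-EGF replicate 2 (0.38) and Arid1a-siRNA replicate 3 (0.215), and the latter with Arid1a-siRNA-with-EGF replicate 2 (0.28). Each gene of the 33 is named. Values in every library are given for Arid1a, for genes called with a log2 change of at least 0.5 in size, and for Ern1, Atf6, Eif2ak3, Xbp1 and Hspa5; those of Pdia5 and Pdia6 were added after their values were seen. From each wider list at most the 2 called genes with the smallest p per comparison are named, besides Atf4, Ddit3 and Trib3. The 33 genes and the lists were chosen with earlier results of these data known. Alternatives were other scalings, filters, fits, tools (DESeq2 1.42.0, limma 3.58.1 on counts and on log2 of FPKM with a pseudocount of 1) and leaving out each library. Motifs were searched in RefSeq promoter windows of GRCm38.p6, a different build from that of the counts, matched by symbol. Intervals are 95%.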

Additional observations from a re-analysis of the deposited data

How the results depend on the processing

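Over 3465 values of the 33 genes under up to 22 alternatives, 3256 kept their direction and side of the threshold, 129 calls were lost, 80 were gained and 0 reversed; 112 uncalled values changed sign. These alternatives leave out the test against a fold of 1.2, which is given apart. Under every one of them 7 genes were called for EGF with control siRNA and 9 for EGF with Arid1a siRNAs. For the Arid1a siRNAs it was 10 without and 10 with EGF. A test against a fold of 1.2 (glmTreat) left 6 (EGF, control siRNA), 2 (EGF, Arid1a siRNAs), 4 (Arid1a siRNAs without EGF) and 3 (with EGF) of the 33, and 2120, 889, 2184 and 2968 of all genes, with 32 for the interaction. With the replicate block on only the groups compared the EGF comparisons called 7 and 9 (2243 and 1932 of all genes), and over all libraries 14 and 17; the knockdown comparisons called 16 and 25, and 12 and 14. The interaction held 56 of all genes with the block. Leaving out 1 library gave 13 to 17 calls for EGF with control siRNA, 11 to 18 with Arid1a siRNAs (11 without Arid1a-siRNA-with-EGF replicate 3), 11 to 14 and 12 to 20 for the knockdown without and with EGF, and 0 for the interaction (55 to 153 of all genes). In the interaction 1 of the 33, Sel1l, was called with the length covariate (817 of all genes, and 5251 for EGF with Arid1a siRNAs) and 1, Sel1l again, without the libraries lowest for long transcripts (458 of all genes). With the length covariate in edgeR, calls gained included Creb3l2 higher with EGF under either siRNA (0.27, adjusted p = 0.000771, and 0.22, adjusted p = 0.00308). They also included Atf6 higher with EGF in control cells (0.11, adjusted p = 0.0389) and Ern1 lower with Arid1a siRNAs in EGF (-0.25, adjusted p = 0.000111). The covariate was estimated from these same counts. Both settings were chosen after seeing the data, and the cause was not tested. The 2 control libraries limit the precision of comparisons that use them.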

Other observations

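Bhlha15 (MIST1), a transcription factor of secretory acinar cells, rose with EGF, while most called genes of the acinar list fell: 3 rose and 11 fell of 23 tested with control siRNA, and 2 rose and 6 fell with Arid1a siRNAs, against 35.6% and 23.4% of all genes called. Bhlha15 was chosen from that list after its values were seen. Leaving out 1 library gave 2 to 4 higher and 8 to 12 lower in the first, and in the second 4 lower without Arid1a-siRNA replicate 3 or Arid1a-siRNA-with-EGF replicate 1, and 1 higher without Arid1a-siRNA replicate 1 or Arid1a-siRNA-with-EGF replicate 1. It was measured at 20.5 and 29.5 CPM in the control libraries, 60.1, 47.7 and 57.0 CPM after EGF, 16.7, 18.9 and 19.1 CPM with Arid1a siRNAs and 30.3, 23.5 and 27.3 CPM with both. EGF raised it 2.21-fold with control siRNA (1.15 ± 0.15, adjusted p = 3.29e-05, edgeR) and 1.48-fold with Arid1a siRNAs (0.57 ± 0.14, adjusted p = 0.00990). Arid1a siRNAs lowered it 1.36-fold without EGF (-0.44 ± 0.15, adjusted p = 0.0365) and 2.03-fold with EGF (-1.02 ± 0.13, adjusted p = 2.09e-05). The interaction was -0.58 ± 0.20, adjusted p = 0.290, and did not pass. The acinar enzyme gene Cpa1 went the other way with EGF, with changes of -0.48 ± 0.07, adjusted p = 0.000162, and -0.39 ± 0.07, adjusted p = 0.000832. Ptf1a, the acinar lineage factor, fell with EGF in control cells (-0.25 ± 0.07, adjusted p = 0.0129) and had a change of -0.01 ± 0.07, adjusted p = 0.926, with Arid1a siRNAs. With 1 library left out, the call of Bhlha15 for EGF with Arid1a siRNAs was lost without Arid1a-siRNA replicate 1 (adjusted p = 0.0535) or Arid1a-siRNA-with-EGF replicate 1 (0.0517), and that for Arid1a siRNAs without EGF was lost without control replicate 2, Arid1a-siRNA replicate 1, 2 or 3 or Arid1a-siRNA-with-EGF replicate 3, adjusted p of 0.0605 to 0.436. The fall of Ptf1a with EGF was lost without control replicate 1 (0.125) or control-with-EGF replicate 1 (0.0545), and both EGF calls of Cpa1 were kept in each of the 11 refits.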
